A study of Mus musculus with 2 samples.

Results

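Open sites deep in introns are stretches of accessible chromatin that lie inside a protein-coding gene but far from any place where a protein-coding transcript begins. A peak was taken as a member where its midpoint lay in the body of a protein-coding gene of GENCODE M21 (mouse build mm10), outside every annotated exon and more than 50 kb from every start of a protein-coding gene in the basic set of that annotation. Of 150176 analysed peaks of replicate 1, 16063 (10.7%) were members, and of 194873 of replicate 2, 22157 (11.4%) were. After peaks of the replicates that overlapped were merged, they formed 26717 of 231068 sites (11.6%). The rule used position alone, so neither the height of a peak nor its presence in the other library chose the members.

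The libraries were made by DNase-seq, in which the enzyme DNase I cuts chromatin where it is not wrapped in nucleosomes and the cut ends are sequenced. Both came from hindbrain of healthy B6NCrl mouse embryos at day 11.5, pooled over males and females, and the labels number them biological replicates 1 and 2 of 1 group and give them 1 donor identifier. Whole tissue was used, so a site open in few cells and a site weakly open in many cannot be told apart, and fewer cells of a type and less opening per cell look the same. With 1 group of 2 libraries no difference between conditions can be tested, and sites of 1 library are not replicates. The 95% intervals below cover counting error only and treat sites as independent, although sites often lie close together. The read depth is unknown. As a check of the tissue label, 8 of 12 hindbrain and neural marker genes had a site open in both libraries within 1 kb of a start. Egr2, which patterns rhombomeres, reached heights of 105 and 122 there, and Atoh1 of the rhombic lip 72 and 118. Most of the Hox genes examined differed between the libraries: Hoxa2, Hoxb1 and Hoxb2 had promoter peaks in replicate 2 (116, 90 and 102) and none in replicate 1. Hoxa3 had none in either, and Hoxb4 had a site open in both (57 and 106). Among 6 forebrain markers, 5 had a site open in both, with Emx2 at 96 and 121, and Six3 had peaks in replicate 2 alone (up to 106). The check therefore does not set hindbrain apart from forebrain. Because the libraries differed at these promoters, their values are given side by side. Whether both hold the same dissected tissue cannot be told from the labels, so a site of 1 library alone cannot be told apart from a difference in tissue.

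Distal enhancers bind transcription factors, displace nucleosomes and act on promoters that can lie far away on the same chromosome, and many of them sit in introns, either of the gene they act on or of an unrelated neighbour. Long introns are typical of genes for neural adhesion molecules, receptors and developmental transcription factors. Other open intronic sites bind CTCF, the protein that with cohesin holds chromatin loops, or are promoters of noncoding transcripts or of short isoforms of the host.

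The sequences of the highest members are shown first because they do not look like one kind of element. They are the central 150 bp of 8 of the 9 highest shared sites, a shared site being one where the libraries each have a peak. Sites were ranked by the mean of the height ranks, that of Nol4 is not shown, and the bases were read from the plus strand of the GRCm38.p6 assembly of RefSeq, whose coordinates are those of mm10. Capitals mark matches, on either strand, to the ETS motif CCGGAAG, the CREB motif TGACGTCA, the proneural E-box CAGCTG, the SP/KLF motif GGGCGGG, the MEIS motif TGACAG, the SOX motif ACAATG and the CCAAT box CCAAT. The last of these was added after the sequences had been seen.
Itpkb, chr1:180387546-180387695: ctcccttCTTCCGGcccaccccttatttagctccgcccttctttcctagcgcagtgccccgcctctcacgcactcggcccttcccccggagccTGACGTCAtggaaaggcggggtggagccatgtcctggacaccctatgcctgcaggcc
Prdm2, chr4:143162176-143162325: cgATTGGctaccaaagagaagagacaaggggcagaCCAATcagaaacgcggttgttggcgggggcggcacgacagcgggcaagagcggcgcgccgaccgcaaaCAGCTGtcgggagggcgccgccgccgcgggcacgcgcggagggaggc
Igf1r, chr7:68129116-68129265: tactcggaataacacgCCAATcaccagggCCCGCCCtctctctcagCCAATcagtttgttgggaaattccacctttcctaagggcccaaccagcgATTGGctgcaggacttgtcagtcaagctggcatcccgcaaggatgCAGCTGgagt
Insr, chr8:3221136-3221285: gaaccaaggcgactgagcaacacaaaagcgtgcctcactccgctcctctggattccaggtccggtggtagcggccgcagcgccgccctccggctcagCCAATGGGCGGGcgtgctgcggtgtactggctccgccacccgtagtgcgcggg
Tnrc6b, chr15:80798486-80798635: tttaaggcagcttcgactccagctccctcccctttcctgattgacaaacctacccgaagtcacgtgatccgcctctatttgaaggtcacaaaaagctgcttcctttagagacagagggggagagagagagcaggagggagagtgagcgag
Ephb2, chr4:136755596-136755745: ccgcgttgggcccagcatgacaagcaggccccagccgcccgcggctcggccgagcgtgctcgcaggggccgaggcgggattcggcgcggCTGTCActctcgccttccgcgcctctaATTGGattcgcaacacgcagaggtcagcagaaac
Gm20388, chr8:120228326-120228475: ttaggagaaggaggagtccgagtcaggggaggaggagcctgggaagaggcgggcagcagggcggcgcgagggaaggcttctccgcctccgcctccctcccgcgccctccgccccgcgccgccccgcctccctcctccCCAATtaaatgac
Chst15 and Fgfr2, chr7:132247696-132247845: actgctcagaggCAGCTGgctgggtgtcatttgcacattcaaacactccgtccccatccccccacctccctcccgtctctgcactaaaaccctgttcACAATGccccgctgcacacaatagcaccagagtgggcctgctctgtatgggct

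The 8 sequences held between 3 and 21 CG pairs and had a GC content between 52.7% and 71.3%. Prdm2 had 21, Ephb2 19, Insr 16 and Gm20388 14, whereas the site shared by Chst15 and Fgfr2 had 3. A CCAAT letter run occurred in 5 of the 8, 3 times in Igf1r and 2 times in Prdm2. It is common everywhere: 17.9% of all members with a peak of each library held it, against 18.7% of windows 1 kb to their sides. A match is a description of letters and does not show that a factor is bound.

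The highest site of all lay in intron 2 of 7 of Itpkb, at chr1:180387536-180387705, 57.1 kb from the nearest protein-coding start. Itpkb encodes a kinase of inositol trisphosphate. The peak height, a whole-number score of the authors that does not pass 150, was 127 in replicate 1 and 137 in replicate 2. Intron 5 of 9 of Prdm2, a zinc finger gene of the PRDM family, held a site of 118 and 137 at chr4:143162176-143162325. It lies 50.5 kb from the nearest protein-coding start, just past the distance that the rule asks for, and 0.099 kb from a transcript start that RefSeq lists and the GENCODE set does not. In Nol4 a site at chr18:22985236-22985405 reached 123 and 133. The receptor genes for insulin-like growth factor and insulin carried the next: Igf1r 118 and 135 in intron 2 of 20, at chr7:68129116-68129265, and Insr 112 and 138 in intron 2 of 20, at chr8:3221116-3221305.

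Tnrc6b, which encodes a partner of Argonaute in microRNA silencing, held a site of 119 and 131 in intron 4 of 24 at chr15:80798476-80798645, 87.2 kb from the nearest protein-coding start of the basic annotation. A RefSeq transcript begins 0.049 kb from its centre. Ephb2, an Eph receptor of axon guidance and boundary formation, had 119 and 131 in intron 3 of 15 at chr4:136755596-136755745, with no RefSeq start nearer than 43.9 kb. The site assigned to Gm20388 (114 and 130) lay at chr8:120228316-120228485 and covers the annotated 5′ end of Gse1, position 120228456 on the plus strand. A protein-coding Gse1 transcript that is in the full GENCODE set but not in the basic one begins there, 0.055 kb from the site's middle, a RefSeq transcript begins 0.1 kb and a noncoding gene 0.171 kb from it, so this member is a site at a listed start. Gm20388 is annotated with a first intron of 4384 kb and its body overlaps 73 other protein-coding genes, so its sites have little to do with 1 gene. The annotated body of Fgfr2, the FGF receptor, likewise overlaps 30 others, and its highest site (114 and 128, chr7:132247696-132247845) is also in Chst15. Ntrk2, the receptor of the neurotrophin BDNF, had 111 and 129 in intron 16 of 17 at chr13:59092796-59093025, 284 kb from the nearest start. Srgap3 (112 and 128, chr6:112838996-112839165) and the phosphodiesterase gene Pde4d (114 and 126, chr13:109822436-109822625) complete the 12 highest. The central 31 bases of each of the 12 occur 1 time on the chromosomes analysed.

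CpG content followed height. Of the 100 highest members with a peak of each library, 17 (17.0%, 95% exact interval 10.2 to 25.8) were CpG-rich, meaning a GC content of at least 55% and an observed to expected CpG ratio of at least 0.65 in 300 bp. Among the 1000 highest it was 34, among all 9814 it was 81 (0.825%, 0.656 to 1.02), and among the 1000 lowest it was 0, with an exact interval up to 0.368%. Other intronic sites were CpG-rich in 3.57% of cases and gene desert sites in 2.02%. RefSeq starts that the rule does not count were nearby in the same order. A RefSeq transcript of any kind began within 1 kb of 15 of the 100 highest, of 74 of the 1000 highest (7.4%), of 387 of all 9814 (3.94%) and of 21 of the 1000 lowest (2.10%). Other intronic sites had one in 8.94% of cases and gene desert sites in 6.83%, both above the share of all members. Starts of the full GENCODE set were within 1 kb of 14 of the 100 highest and of 8.4% of the 1000 highest. For all shared members and the 1000 lowest their shares were alike, 5.17% and 5%. Of the 17 CpG-rich sites among the 100 highest, 9 had a RefSeq start within 1 kb. The remaining members, by far most of them, were neither CpG-rich nor beside a listed start.

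Members found in both libraries were the smaller number. Of the 26717 member sites, 9814 (36.7%, 36.2 to 37.3) had a peak of each library, 5613 a peak of replicate 1 alone and 11290 a peak of replicate 2 alone; over all sites of the series the shared share was 42.3%. Counted by peak, 62.9% of members of replicate 1 (62.1 to 63.6) were overlapped by a peak of replicate 2, against 67.5% of all its peaks. In the other direction 45.2% of members of replicate 2 (44.5 to 45.8) were overlapped, against 51.6% of all. Members therefore stood below the series' own share in both libraries. Sites of gene deserts, which lie outside protein-coding genes and more than 50 kb from a start, were shared in 35.1% of cases, and other intronic sites, 1 to 50 kb from a start, in 39.8%.

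Member peaks were low. Their median height was 31 in replicate 1, with quartiles of 23 and 45, a lowest value of 4 and a highest of 127. In replicate 2 the median was 43, the quartiles 34 and 59, and the range 3 to 138. Over 100 stood 57 members of replicate 1 (0.355%) and 522 of replicate 2 (2.36%). How the authors scaled the height is unknown. The libraries' heights are therefore compared by rank, and any ratio or direct comparison of their scores is a description only. At 9234 sites with 1 peak of each library, Spearman's rho between the heights was 0.735 (a description over sites of 1 pair of libraries), and the ratio of replicate 2 to replicate 1 had a median of 1.41.

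**Figure D1:**
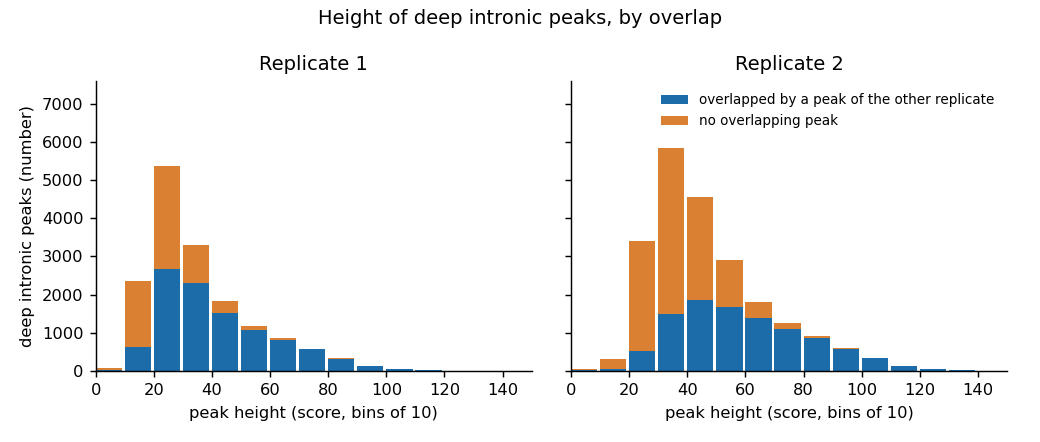
Number of deep intronic peaks by peak height (score, bins of 10) in each replicate, split into peaks overlapped by a peak of the other replicate and peaks with none. Most of the low peaks stand alone, more so in replicate 2, and nearly all of the peaks over 80 are overlapped.

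The share of members found again rose with their height. In replicate 1, 26.5% of members of height 20 or less were overlapped, 57.4% of those above 20 up to 40, 86.8% above 40 up to 60, and 57 of 57 above 100. The same steps in replicate 2 gave 15.4%, 21.8% and 47.3%, and 512 of 522 above 100 (98.1%). Overlapped members had a median height of 38 and 57, members alone 24 and 37.

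Members were lower than other intronic peaks. The probability that a member was the higher of a random pair was 0.462 in replicate 1 (95% normal interval 0.457 to 0.468) and 0.438 in replicate 2 (0.433 to 0.443), where 0.5 would mean no difference. Against gene deserts it was 0.519 (0.513 to 0.524) and 0.530 (0.526 to 0.535), so members stood slightly above. Their overlap was 4.27 percentage points below that of other intronic peaks in replicate 1 (Newcombe interval -5.18 to -3.37) and 2.5 points below in replicate 2 (-3.31 to -1.70). Compared at equal height, in bins of 10, the difference was -1.59 points in replicate 1 (-2.41 to -0.778) and turned to 3.39 points in replicate 2 (2.70 to 4.09), in favour of the members. The lower overlap in replicate 2 therefore held only as long as height was left out. Against gene desert peaks at equal height, members minus desert peaks gave -0.719 (-1.55 to 0.110) and -0.159 points (-0.864 to 0.547), intervals that hold 0 and reach no further than 1.55 points.

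The 50 kb limit fell where nothing in the heights changed. Members 50 to 55 kb from a start had a median height of 31 and 45, and intronic peaks 45 to 50 kb away had 31 and 45. Overlap just inside was 64.4% and 48.3%, just outside 64.2% and 47.1%.

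Most of the highest members found in 1 library alone lay just beside a peak of the other. The highest members without an overlapping peak were 99 in replicate 1, in Magi2, a scaffold protein gene (chr5:20701556-20701705), and 110 in replicate 2, in the cadherin gene Cdh22 (chr2:165184076-165184225). In intron 6 of 13 of Msi2, which encodes a Musashi RNA-binding protein of neural progenitors, replicate 1 had a peak of 93 at chr11:88585356-88585505 and replicate 2 a peak of 109 at chr11:88585196-88585345, with a gap of 10 bp between them. The same gap of 10 bp separated the Tenm2 peak of replicate 1 (86) and the Maml3 peak of replicate 2 (108) from the nearest peak of the other library. Gaps of 50 bp at Slit3 (85), 70 bp at Tle4 (91) and 70 bp at Rere (106) were alike. Of the 10 highest such peaks, 7 had a gap of at most 70 bp. The Cdh22 peak and one in Prdm16 (108, chr4:154503336-154503485) were 6810 and 3350 bp from any peak of replicate 1 and lay in none of its hotspots, the wider accessible intervals that the authors called. The Magi2 peak was 370 bp from the nearest peak of replicate 2 and lay inside one of its hotspots. A start of the full GENCODE set was 0.038 kb from the Magi2 peak and 0.134 kb from the Rere peak. A RefSeq start was 0.183 kb from the Tenm2 peak. The others of these 10 peaks had no start of either set within 1 kb. Over all members alone, 14.0% in replicate 1 and 8% in replicate 2 had a peak of the other library within 150 bp, and 13% and 2.76% lay inside one of its hotspots.

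Shared members covered 380.7 Mb of deep intron at 25.8 per Mb (exact Poisson interval 25.3 to 26.3). Other introns held 38.7 per Mb and gene deserts 15.4, which puts deep introns at 0.665 times other introns (0.65 to 0.682) and 1.68 times gene deserts (1.63 to 1.72). The decline was not spread evenly over distance. Introns had 67.6 sites per Mb at 1 to 5 kb from a start, a flat 32.5 to 33.0 between 5 and 50 kb, 31.5 at 50 to 100 kb (30.6 to 32.4), 26.7 at 100 to 200 kb, 18.7 at 200 to 400 kb and 10.7 beyond 400 kb (9.64 to 11.9). At equal distance, introns were denser than sequence outside genes in each interval past 50 kb: 31.5 against 26.6, 26.7 against 20.1, 18.7 against 13.4 and 10.7 against 6.47, with no overlap of the intervals. Between 5 and 20 kb the order was the other way, 32.5 against 39.8 at 5 to 10 kb and 32.8 against 35.9 at 10 to 20 kb, and nearest to a start, at 1 to 5 kb, introns were again denser, 67.6 against 56.6. Member height changed little with distance, from a median of 31 and 44 at 50 to 100 kb to 30 and 40 beyond 400 kb.

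**Figure D2:**
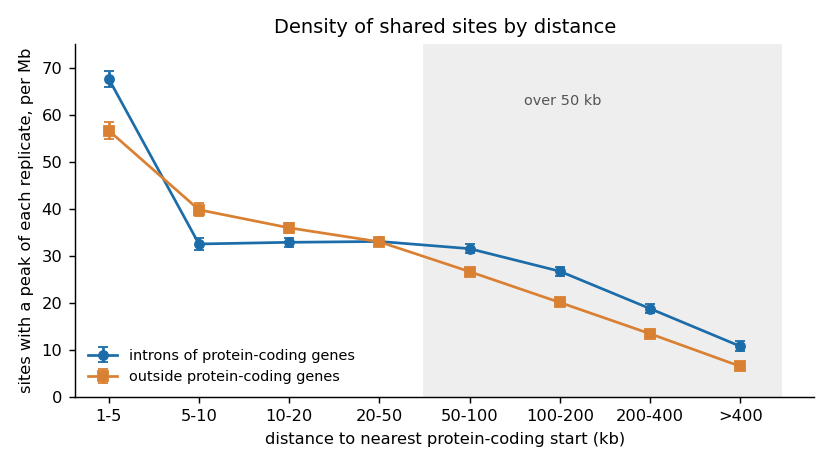
Sites with a peak of each replicate per Mb (y axis) against distance to the nearest protein-coding start in kb (x axis), for introns and for sequence outside protein-coding genes; bars are exact 95% Poisson intervals and the shaded part is the range of the deep intronic sites. Introns are above at 1 to 5 kb and below between 5 and 20 kb, the curves meet at 20 to 50 kb, and past 50 kb introns stay above, 31.5 against 26.6 and finally 10.7 against 6.47 per Mb.

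The X chromosome stood apart. Its deep introns held 8.09 shared sites per Mb (6.83 to 9.52), whereas the autosomes lay between 21 on chromosome 15 and 34.4 on chromosome 11. Other introns of the X were also sparse, 19.4 per Mb. The embryos were of both sexes, and the part of X copy number in this was not tested.

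The median distance of shared members from a start, which the rule bounds from below, was 100 kb, the longest 1489 kb, and 1715 (17.5%) were over 200 kb away. For 6754 of 9814 (68.8%, 67.9 to 69.7) the nearest protein-coding start belonged to the host gene itself, and for the others to a different gene. Shared members also differed from other shared intronic sites in further measures, of which spacing is tied to the rule. The next shared site of any kind was within 5 kb for 46.7% of members (45.7 to 47.7), for 62% of other intronic sites and for 47.9% of gene desert sites. A promoter site, within 1 kb of a start, cannot lie within 5 kb of a member or of a gene desert site. Other intronic sites can have one that near, since 6058 shared intronic sites lay 1 to 5 kb from a start. GC content over 150 bp had a median of 50% against 52% for other intronic sites and 50% for gene deserts. Sequence that is mostly repeat, by soft-masking, made up 3.38% of members, 5.99% of other intronic sites and 3.06% of gene desert sites. Hotspots of over 2 kb held 0.199% of members of replicate 1 and 1.20% of those of replicate 2, against 1.61% and 10.1% of other intronic peaks and 0.606% and 2.94% of gene desert peaks. The start of a noncoding gene was within 1 kb of 1.65% of shared members, 3.20% of other intronic sites and 5.49% of gene desert sites. In spacing, GC content and repeat share members were closer to gene desert sites than to other intronic sites, whereas in wide hotspots and noncoding starts they were below both.

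The motif with the strongest excess at member centres was that of CTCF. It was present in 1670 of 9814 shared members (17.0%, 16.3 to 17.8) and in 1.92% of windows 1 kb to either side of them. The 3 highest members with a match are shown, chosen for it after the shares were known, with the match in capitals.
Lrig2, chr3:104442106-104442255: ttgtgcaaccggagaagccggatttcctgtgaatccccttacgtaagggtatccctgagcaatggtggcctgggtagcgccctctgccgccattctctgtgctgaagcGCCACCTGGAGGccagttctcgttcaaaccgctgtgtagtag
Dync1i1, chr6:6005796-6005945: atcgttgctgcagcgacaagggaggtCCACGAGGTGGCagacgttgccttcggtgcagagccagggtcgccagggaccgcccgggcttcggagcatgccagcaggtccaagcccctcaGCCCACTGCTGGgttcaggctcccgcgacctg
St3gal3, chr4:118083706-118083855: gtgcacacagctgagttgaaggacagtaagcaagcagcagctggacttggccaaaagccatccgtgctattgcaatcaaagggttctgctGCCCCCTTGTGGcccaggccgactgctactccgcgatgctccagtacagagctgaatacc

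Their heights were 109 and 120 in Lrig2, 105 and 121 in Dync1i1, whose sequence holds 2 matches, and 110 and 114 in St3gal3. The Dync1i1 site lay 0.195 kb from a start of the full GENCODE set and 28.5 kb from the nearest RefSeq start. Members with the CTCF motif had a median height of 50 and 66, members without it 36 and 56. The motif was in 28.3% of the highest 25% of members and in 10.9% of the lowest 25%. It was in 299 of the 1000 highest (29.9%) but in 10 of the 100 highest, where the CpG-rich sites are found. Other intronic sites held it more often, in 22.6% (difference -5.56 points, -6.49 to -4.62), and gene desert sites less often, in 15.7%.

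Motifs of neural development were divided. The proneural E-box CAGCTG, bound by bHLH factors of neurogenesis, was in 17.7% of members against 7.10% of flanks and 16% of other intronic sites (difference 1.78 points, 0.881 to 2.69). The difference from other intronic sites was 0.556 (-0.710 to 1.86) among peaks above the library median height and 0.474 (-0.649 to 1.64) with a limit of 100 kb, intervals that hold 0. The SOX motif ACAATG, bound by SOX2 and its relatives in progenitors, was in 11.7% against 8.44% of flanks and 8.87% of other intronic sites (2.84 points, 2.10 to 3.59). MEIS sites, TGACAG, bound by TALE homeodomain partners of Hox proteins, were in 15.7%, 11.1% and 13.5%. The RFX motif GTTGCCA was in 4.73% against 1.41% of flanks and 4.31% of other intronic sites, and the ZIC motif CAGCAGG in 10.1% against 3.97% and 10.8%, the intervals of both differences from other intronic sites holding 0. Some other motifs of neural factors were less frequent than in the flanks: the E-box CATATG in 2.68% against 3.96%, the POU motif ATGNATA in 5.79% against 9.45% and the Pax homeodomain dimer in 0.245% against 0.555%. A second POU motif, ATGCAAAT, was above its flanks, 1.57% against 1.10%. ATGNATA was itself more frequent than in other intronic sites, which held it in 4.58% (difference 1.21 points, 0.679 to 1.77). Unlike CTCF, the E-box and SOX motifs did not rise with height: the E-box was in 15.4% of the highest 25% and 18.3% of the lowest, the SOX motif in 11.3% and 11.5%.

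The homeobox motif TAATTA shows why both references are needed. It was in 3.65% of members, fewer than in their flanks (5.13%) and more than in other intronic sites (2.62%). Of the motifs common in promoters, some were rarer in members: the SP/KLF motif GGGCGGG was in 2.91% of members and 5.10% of other intronic sites, and the ETS motif CCGGAAG in 0.866% and 1.28%. The NRF1 motif GCGCATGCG was in 0.143% and 0.156%, with an interval of the difference that holds 0, and the CCAAT box was in 17.9% of members and 16.9% of other intronic sites (1.03 points, 0.118 to 1.95). Of the 30 motifs, 20 were more frequent at the centres than in the flanks and 6 less frequent, by intervals that leave out 0. Against other intronic sites, 14 were more frequent and 4 less frequent, and against gene deserts 2 and 3. Members also differed from other intronic sites in GC content, and its part in these differences was not tested. The base composition of the flanks was not measured, and its part in the differences between centres and flanks was not tested either.

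**Figure D3:**
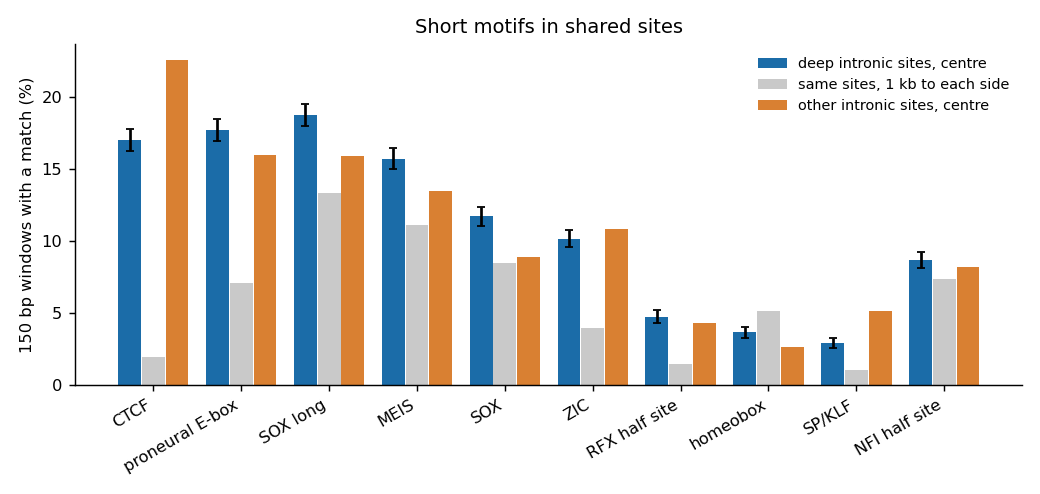
Percent of 150 bp windows with a match to 10 of the motifs, at the centre of shared deep intronic sites (bars with exact 95% intervals), in windows 1 kb to each side of the same sites, and at the centre of other shared intronic sites. CTCF stands out against the flanks (17.0% against 1.92%) and is more frequent in other intronic sites (22.6%).

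The remaining motifs were searched on both strands too. They were the longer SOX motif ACAAAGN (18.8% of members), CATTGTC of SOX dimers (3.12%), TTGGCA (8.69%) and a longer motif of NFI (0.153%), PBX-HOX TGATTNAT (2.23%), POU ATGCAAAT (1.57%) and TCF/LEF CTTTGAT (2.64%). Those of GLI TGGGTGGTC (0.245%), AP-1 TGANTCA (4.68%), TEAD GGAATG (10.3%), AGATAAG of GATA factors (1.33%), nuclear receptors AAGGTCA (3.72%), RBPJ GTGGGAA (3.53%), CREB TGACGTCA (0.255%), forkhead TGTTTAC (2.00%), MEF2 CTATTTAT (0.265%), and REST TTCAGCACC (0.622%) followed. Several of them overlap in letters with another, such as the 3 SOX motifs, so their shares are not independent.

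Deep intron was present in 3239 host genes, 2032 of which held a shared member. For density only the 1007 hosts with at least 100 kb of deep intron were compared. Their median was 2.28 shared sites per 100 kb (quartiles 0.941 and 3.97), 60 had no shared site and 9 no site at all. Members were spread over many genes: 331 hosts together held 50% of the shared sites, and the 100 with most sites held 23.9%. Site density was alike in the libraries, with a Spearman's rho of 0.861 over hosts, and 26 of the 50 densest hosts of one were among the 50 densest of the other (52.0% of each list). It also followed base composition, with a rho of 0.685 between density and the GC content of the gene body over the same 1007 hosts, which are not independent points.

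Gse1, a gene of a coiled-coil protein of histone demethylase complexes, had the highest density per deep intron. It had 41 shared sites in 207.5 kb, or 19.8 per 100 kb (14.2 to 26.8), with 22.6 and 36.1 sites per 100 kb in replicates 1 and 2. The Gse1 start described above is not in the basic set, so intron just after it counted as deep. Densities of hosts by the starts of every gene type were not computed, so the part of this in the rank of Gse1 was not tested. Bach2, a transcription repressor best known from B cells, followed with 30 in 162.8 kb (18.4 per 100 kb, 12.4 to 26.3). Its highest shared member reached 98 and 105, and its highest peak of replicate 2 was 114. In replicate 1 alone Bach2 came first, with 23.3 sites per 100 kb. Sh3rf1, an E3 ligase and JNK scaffold gene, had 16.7, Ephb2 16.4, Igsf21, a synaptic adhesion gene, 15.5 and Celf4, a neuronal RNA-binding protein gene, 14.8. Agap1 (12.7), the zinc finger gene Zbtb16 (12.5), the TALE homeobox gene Pknox2 (12.2), Bcar3 (11.8), Frmd4a (11.7) and the Wnt5a receptor gene Ror2 (11.4) made up the rest of the 12 densest. Counting intervals of neighbours in this order overlap throughout, from 14.2 to 26.8 for Gse1 to 6.24 to 19.2 for Ror2, so the order within the 12 is not resolved. It also depends on how density is counted. Per 100 kb of whole intron Celf4 had 12.1 and Gse1 12.04, Bach2 8.96, Bcar3 5.24 and Frmd4a 4.91. That measure divides the same sites by more bases, so it can only be lower. With a limit of 100 kb Ephb2 had 7.56 and Zbtb16 3.26. Among peaks above the library median height Bach2 had 9.22, Sh3rf1 8.80 and Igsf21 7.76, where the median of all hosts was 0.809 in place of 2.28. The gene bodies of the 12 had a GC content of 44.2% to 54.5%, against a median of 41.4% over all hosts.

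**Figure D4:**
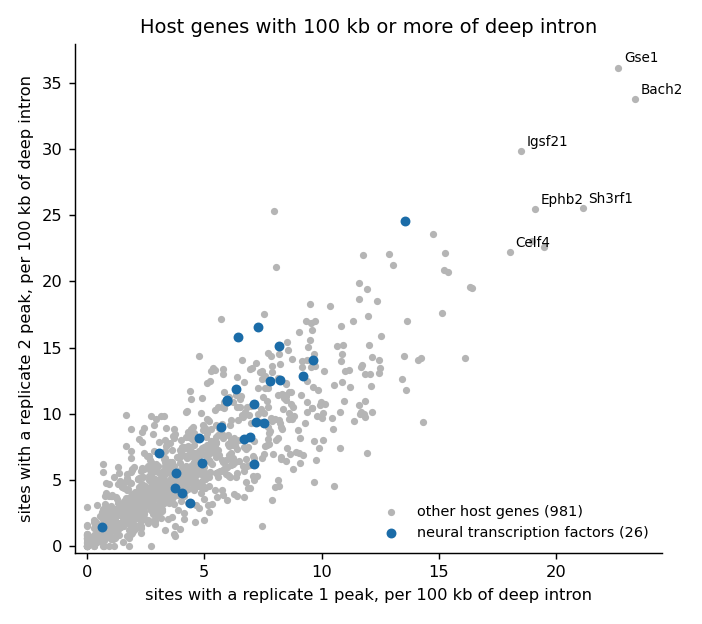
Sites with a peak of replicate 1 (x axis) and of replicate 2 (y axis) per 100 kb of deep intron in 1007 host genes, 1 point per gene, with 26 genes of neural transcription factors coloured and the 6 densest hosts named. Gse1 and Bach2 are at the upper right in both libraries (22.6 and 36.1, 23.3 and 33.8).

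By number of shared sites the order was another one, led by long genes. Gm20388 had 115 and Fgfr2 54, with the annotated bodies described above. Ptprn2, a gene of secretory granules, also had 54 in 725.7 kb (7.44 per 100 kb). Zfhx3, a large homeobox and zinc finger gene, had 47, Lrmda 45, Wwox 42, Nav2 39, Camta1 37, Ttc28 36, and Agap1 and the bHLH-PAS gene Npas3 34 each. Gse1 with 41 and Agap1 were the hosts in both lists of 12. At the other end, the 6 hosts with the longest deep intron among those without a shared site were Il1rapl2 with 1039 kb, Pcdh11x with 489.6 kb, the epidermal and thymic genes Skint5 and Skint6, Luzp2 and Brinp3. Il1rapl2 had 2 sites of replicate 1 and 5 of replicate 2, none in common, and the exact interval of its count of 0 reaches 0.355 shared sites per 100 kb. Pcdh11x and Skint6 had no peak of either library. All 6 had a low GC content, between 34.6% and 37.8%.

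Genes of neural transcription factors were dense in members. All 34 that have deep intron held a shared site, 420 in all, beside 2032 of all 3239 hosts with deep intron. Of those with at least 100 kb all 26 did, but so did 947 of all 1007 hosts of that length. The median of the 26 was 4.46 per 100 kb against 2.28 for all hosts, with 20 of 26 above it. The GC content of their bodies had a median of 41.6%, near the 41.4% of all hosts. Prdm16, a zinc finger gene of neural stem cells, had 10.03 (6.13 to 15.5) and the hedgehog effector Gli2 6.75. Their values in replicates 1 and 2 were 13.5 and 24.6, and 9.21 and 12.9. Gli3, with 5.80, and Nfia, a factor of gliogenesis, with 5.69 were also above the median of all hosts, whereas Tox had 1.21 and Dach2 0.417. Transcription factors of other lineages had a median of 2.72, 8 of 11 above the median of all hosts, led by Glis3 (4.42), Trps1 (4.32) and the blood stem cell factor Mecom (3.53).

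Genes of adhesion and of synaptic function had lower medians, and their bodies a lower GC content: a median of 39.1% for cell adhesion genes and 40.2% for receptor and channel genes, against 41.4% for all hosts. The part of GC content in this was not tested. Cell adhesion genes stood at 1.32, with 11 of 37 above that of all hosts; Cdh4 had 5.15, Tenm3 4.92 and Ncam1 4.82, while Cdh18 had 1 shared site in 720.3 kb. Neurotransmitter receptor and ion channel genes had a median of 1.19 with 12 of 34 above. Cacna1a, the P/Q-type calcium channel gene strongly used in cerebellum, was far from the rest of its list with 10.005 (5.47 to 16.8), followed by Cacna2d3 with 3.78 and Cacna1e with 3.31. Axon guidance and growth factor receptor genes were near the middle, with a median of 2.19 and 13 of 28 above that of all hosts. They ran from Igf1r (7.4), Ntrk2 (5.82) and Fgfr2 (5.66) down to Nrg3 (0.0957). The annotated body of Fgfr2 overlaps 30 other protein-coding genes, so its value is not that of 1 gene. Genes of common fragile sites, which are very long and replicate late, had a median of 1.25, a GC content of 39.0% and 1 of 13 above: Wwox with 4.90. Dab1 had 2.24. These lists were chosen with results of these data known and were not tested. They are not complete: the synaptic adhesion gene Igsf21 and the Eph receptor gene Ephb2, both among the 12 densest hosts, are in none of them.

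**Figure D5:**
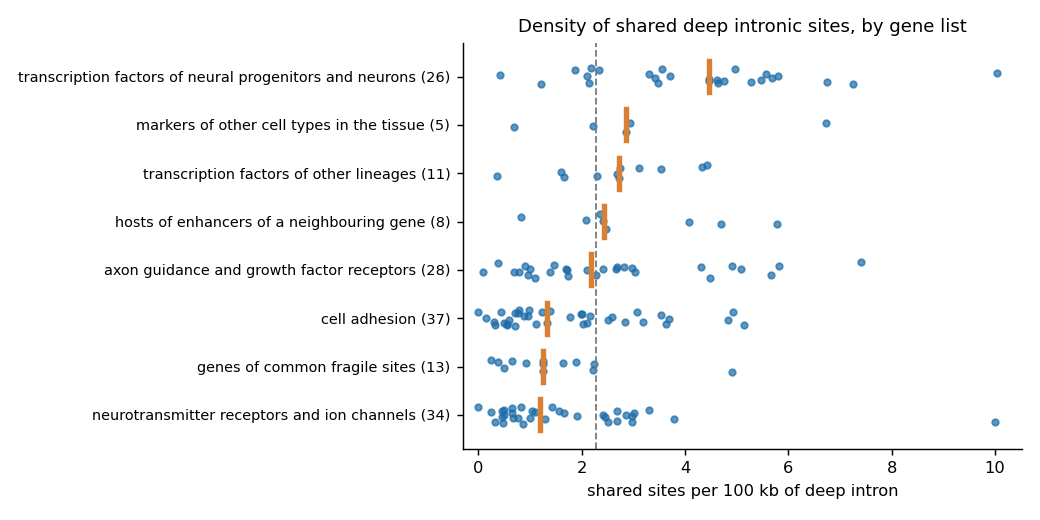
Shared deep intronic sites per 100 kb of deep intron for the genes of 8 lists with at least 100 kb, 1 point per gene (number of genes in parentheses); the bar is the list's median and the dashed line the median of all 1007 hosts, 2.28. Neural transcription factor genes have the highest median, 4.46, and receptor and channel genes the lowest, 1.19.

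Markers of other cell types gave 5 hosts of this length. The muscle gene Myo18b had 6.73, the endothelial VEGF receptor gene Flt1 2.93 and the fibrillin gene Fbn2 2.85, around a median of 2.85. Of 13 such genes with deep intron, 11 held a shared site, 29 in all, beside 2032 of all 3239 hosts with deep intron. The leukocyte gene Dock2 had 2.22 and Fbn1 0.688. How far cells of these kinds add to the members was not tested.

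A last group of hosts is known for enhancers that act on a neighbour: Lmbr1 for Shh, Fto for Irx3, Elp4 for Pax6, and Dync1i1 for Dlx5 and Dlx6. Of 12 genes chosen for this, all had deep intron and 11 a shared site, which 2032 of all 3239 hosts with deep intron also had. The median of the 8 with at least 100 kb was 2.44, with 6 above that of all hosts. Fto held 16 shared sites in 276.6 kb (5.78 per 100 kb, 3.31 to 9.39), the highest 92 and 102 in its intron 1 of 8 at chr8:91378876-91379025. Fam172a had 13 (4.70), Slc25a13 5 (4.08) and Lmbr1 3 in 75.1 kb (4, 0.824 to 11.7), the highest of them 71 and 86 in intron 5 of 16 at chr5:29293316-29293465. Elp4 held 3 (2.35). Its highest, 85 and 65 at chr2:105779456-105779625, has Pax6 as the nearest protein-coding start, 103 kb away, and its height is larger in replicate 1, whereas 90.5% of members with 1 peak of each library were higher in replicate 2. Mctp1 had 12 (2.46) with heights up to 106 and 117, Dync1i1 6 (2.41) and Pola1 5 (2.08), where no member passed 33 and 36. Tmem161b had 2 in 18.3 kb, Rbm33 1 in 44.1 kb and Mgat4c 4 in 488.1 kb (0.820). Rnf220 had a peak of replicate 2 alone (50). Whether any of these sites acts on the neighbouring gene is not measured here.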

How the data were processed

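Accessible chromatin was measured by DNase-seq in 2 libraries on Illumina HiSeq and NextSeq machines, per the labels. Peaks and hotspots were called on each replicate alone from alignments to mm10, per the text deposited beside the files, with aligner, caller and filters not given in the sources used here. A remark in the series title calls it superseded by a later record, which was not analysed here. The peak height is a deposited score of unknown scaling, on peaks of 150 bp. The hotspot value is the deposited -log10 of a false discovery rate estimate, used only to name hotspots. Read depth is unknown.

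The autosomes, X and Y were kept, without 32 and 60 repeated entries. Overlap of 1 bp or more joined peaks into 1 site, and shared sites have a peak of each library. Starts were those of protein-coding genes in the basic set of GENCODE M21, exons those of every annotated gene, and territory the bases of GRCm38.p6 other than N. A site counts as a member if any of its peaks is one. Intervals are exact for shares and densities, Newcombe's for differences of shares, normal for the probability of being higher, and log-normal for density ratios. No p-value was computed, since the libraries form 1 group. Functions were tested on simulated data.

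Named were the 12 highest shared sites, the 12 densest hosts and the 12 with most sites, 6 long hosts without a shared site, the 3 densest genes of each list and further ones beside them, the hosts of neighbours' enhancers, and the 5 highest members of each library alone. Some genes that this rule names are not reported here. The members, lists and motifs were chosen with earlier results of these data known. Alternatives were the distance limit, the overlap, the height, the starts used, the motif window and each library alone. Computation was in Python 3.11.15 (scipy 1.17.1, numpy 2.4.6, matplotlib 3.10.9, pandas 2.3.3).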

Additional observations from a re-analysis of the deposited data

How the results depend on the processing

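The share of members in both libraries, 36.7%, was 38.1% with a limit of 20 kb, 35.3% with 100 kb, 30.5% with 75 bp of overlap and 47.0% among peaks higher than the median of their library. It was 40.8% when peaks less than 150 bp apart also counted and 36.7% without 2 hosts whose bodies overlap 10 or more genes, 2 settings chosen after seeing the data. In replicate 2 the overlap difference from other intronic peaks, -2.5 points, was -0.182 with a limit of 20 kb and -0.510 above the median height, with intervals that hold 0, and 3.39 at equal height; the cause was not tested. In replicate 1 it stayed below 0 in all 6 settings. Members stayed lower than other intronic peaks in both libraries in all 4 settings, and the density ratio to other introns, 0.665, lay between 0.555 and 0.711 in all 8, with 0.7 and 0.711 from 1 library alone. The ratio of the neural transcription factor list to all hosts, 1.95, was 2.03, 2.15 and 2.47 with limits of 20 and 100 kb and above the median height, and 1.76 to 1.82 from 1 library alone. Lists near 1 changed sides: other lineages fell to 0.659 above the median height, and axon guidance rose to 1.04 with a limit of 100 kb and 1.01 in replicate 2 alone. The count of motifs that differed from other introns, 18, was 14 to 21, the E-box difference from other introns, 1.78 points, was 0.556 above the median height and 0.474 with a limit of 100 kb, with intervals that hold 0, and the longer NFI motif turned to -0.0256 points with a limit of 100 kb. Among the 12 densest hosts, Celf4 alone kept within 1.5 times its density in every setting that used both libraries. Of these settings, that above the median height also took the median of all hosts from 2.28 to 0.809 per 100 kb. The one per whole intron length can only lower a density. A fall in either does not by itself show that a host is unstable. No read depth is given, so absence from a library cannot be told from too few reads.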
